A study of Mus musculus with 9 samples.

Results

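The regions described here are all the enriched regions that fall on mouse chromosome 4 in 9 chromatin immunoprecipitation sequencing (ChIP-seq) libraries from pancreatic cancer cell lines. They number 9907 of the 185632 regions in the 9 lists, against 9493 on chromosome 6, 8324 on chromosome 15 and 5679 on chromosome 19. The chromosome was chosen by its read counts, because all 3 marks differed between the lines there, so differences over the whole chromosome are given as a description with no test. The lines were a female line without Kdm6a (female KO), a male line without Kdm6a (male KO) and a male line with the gene intact (male WT). All 3 came from pancreas of mice of mixed C57BL/6-SV129 strain and were cultured untreated in EGF-supplemented F12/DMEM. Each line was profiled for H3K4me3, H3K27me3 and H3K27ac, with 1 library per mark and line. There was no replicate and no female WT line, so genotype, sex and line cannot be told apart, and no p-value was computed. The labels do not say whether a line is 1 clone.

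Kdm6a is an X-linked gene whose product demethylates lysine 27 on histone H3, erasing H3K27me3. H3K27me3 is laid down by the Polycomb complex PRC2 over silenced genes, often in broad domains. H3K27ac is found at active promoters and enhancers, on the same residue and therefore exclusive of H3K27me3 on 1 histone tail. H3K4me3 is found at promoters, active or poised. The reads that a region yields depend on how much of the mark it carries and on how many copies of the DNA the cells hold, so a change of all 3 marks over a long stretch and a change of 1 mark are different patterns. With 1 bulk library per line, a change in part of the cells and a smaller change in all of them cannot be told apart, and no library without an antibody was analysed here.

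Chromosome 4 was covered very unevenly by the 3 lines. Counts of H3K27me3 regions were 1193 (female KO), 1543 (male KO) and 635 (male WT), and they covered 24.1, 12.8 and 2.49 Mb in that order of lines. The male WT list covered 16.0 kb per Mb of chromosome 4, the lowest of the 19 autosomes, where the others ranged from 21.7 to 120 kb per Mb. The 2 KO lists were not low there: female KO covered 155 kb per Mb, which ranked 14 from the lowest of 19, and male KO covered 82.3 kb per Mb, which ranked 8. H3K27ac showed the same order, with 12.3 Mb covered for female KO, 8.14 Mb for male KO and 4.12 Mb for male WT. The male WT list was again the lowest of the 19 autosomes, at 26.5 kb per Mb. For H3K4me3 the lines were closer, with 954, 1055 and 968 regions covering 6.14, 4.08 and 4.24 Mb, in the order female KO, male KO, male WT. Regions on the chromosome summed to between 35732 reads, for H3K27me3 in male WT, and 1387297 reads, for H3K27me3 in female KO. These sums grow with the length called and are not library depths.

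**Figure D1:**
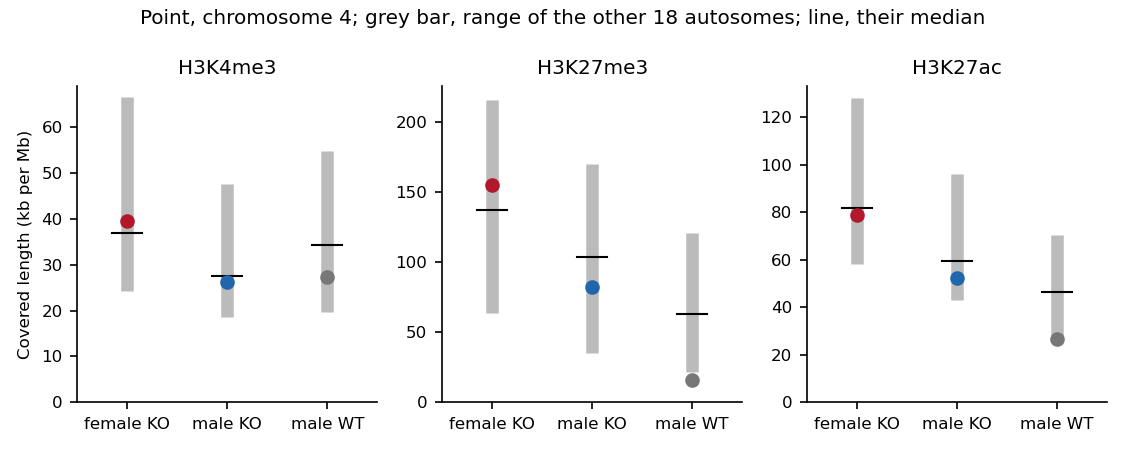
Covered length of chromosome 4 (points, kb per Mb) for each mark and line, with the range (grey bars) and median (black lines) of the other 18 autosomes. The male WT points for H3K27me3 (16.0 kb per Mb) and H3K27ac (26.5 kb per Mb) lie below the range of the other autosomes, while both KO lines lie within it.

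The uneven coverage also showed in which lines shared a region. When the 3 lists of a mark were merged, 11 of 1605 merged H3K27me3 regions (0.685%) belonged to male WT alone, against 13.8% on the other autosomes. In female KO alone lay 695 of the 1605 (43.3%), against 5785 of 28950 on the other autosomes (19.98%), and in male KO alone 27.3%, against 21.9%. Both KO lines without male WT held 16.8%, against 9.90%. For H3K27ac, female KO alone held 21.7% of 1665 merged regions, against 9.59% on the other autosomes, and male WT alone held 4.80%, against 8.24%. H3K4me3 was the most alike between lines, with 66.8% of 1160 merged regions in all 3 lines, against 64.6% elsewhere. Whether a region is called depends on depth, so these shares were not read as gain or loss of a mark.

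To compare levels where all lines had a call, reads were counted in bins of 200 bp that all 3 lists of a mark hold, in windows of 1 Mb. Each log2 ratio between lines has the median over all autosomal windows subtracted, so 0 stands for the level of a typical autosomal window. Of 156 windows, 77 had a value for H3K4me3, 39 for H3K27me3 and 66 for H3K27ac, and 32 had all 3. H3K27me3 is thus known for a minority of the chromosome.

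Female KO over male WT was above 0 in most windows with a value, in all 3 marks. This held in 75 of 77 windows for H3K4me3, 38 of 39 for H3K27me3 and 60 of 66 for H3K27ac. H3K27me3 values were sparse in the first part of the chromosome. Between 48000000 and 106000000 only the window from 63000001 to 64000000 had one, at -0.08. The windows from 21000001 to 22000000 and from 22000001 to 23000000 had 0.00 and 0.03. The median log2 ratio was 0.33 for H3K4me3 (95% binomial interval of the median 0.29 to 0.38), 0.63 for H3K27me3 (0.54 to 0.73) and 0.41 for H3K27ac (0.30 to 0.52). These intervals treat windows as independent and do not cover the spread between libraries. Each median was the highest of the 19 autosomes. The other autosomes' medians ranged from -0.15 to 0.16 for H3K4me3, from -0.29 to 0.31 for H3K27me3 and from -0.13 to 0.15 for H3K27ac. A log2 ratio of 0.5 or more was reached by 13 of 77 windows for H3K4me3, against 1.39% of windows on the other autosomes. It was reached by 28 of 39 windows for H3K27me3, against 10.9%, and by 27 of 66 for H3K27ac, against 3.79%. In 31 of the 32 windows with all 3 marks, each mark was above 0, against 154 of 780 windows elsewhere. All 3 marks passed 0.5 together in 2 of 32 windows, against 0.0% of windows elsewhere.

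Male KO over male WT gave medians near 0, at -0.10 for H3K4me3, 0.00 for H3K27me3 and 0.02 for H3K27ac, but the chromosome was not uniform. Values of 0.5 or more were reached in 14 of 77 windows for H3K4me3, against 0.154% of windows on the other autosomes. For H3K27me3 this held in 12 of 39 windows, against 0.647%, and for H3K27ac in 12 of 66, against 1.93%. The 3 marks passed 0.5 together in 4 of 32 windows, against 0.0% elsewhere. The highest of these, from 154000001 to 155000000, had a log2 ratio of 0.99 for H3K4me3, 1.40 for H3K27me3 and 0.82 for H3K27ac. The window from 118000001 to 119000000 had 0.89, 1.01 and 0.97 for the marks in the same order. At the other end, the lowest window, from 139000001 to 140000000, had -0.46, -0.09 and -0.21. All positions are 1-based on build mm9.

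Female KO over male KO combined both patterns. Medians were 0.37 for H3K4me3, 0.41 for H3K27me3 and 0.37 for H3K27ac, each the highest of the 19 autosomes. For H3K4me3, 29 of 77 windows were higher by 0.5 or more, against 1.0% on the other autosomes, and 6 were lower by as much, against 1.47%. For H3K27me3, 19 of 39 were higher, against 7.0%, and 2 were lower, against 7.44%. For H3K27ac, 24 of 66 were higher, against 2.48%, and 4 were lower, against 2.79%. All 3 marks were higher together in 4 of 32 windows, against 0.0% elsewhere. The largest common difference was from 150000001 to 151000000, with log2 ratios of 0.89, 0.63 and 0.99 for H3K4me3, H3K27me3 and H3K27ac. The lowest was the window from 154000001 to 155000000, with -0.61, -0.81 and -0.32. Male WT enters both KO over WT ratios and each line enters 2 of the 3 ratios, so the 3 comparisons are not independent.

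**Figure D2:**
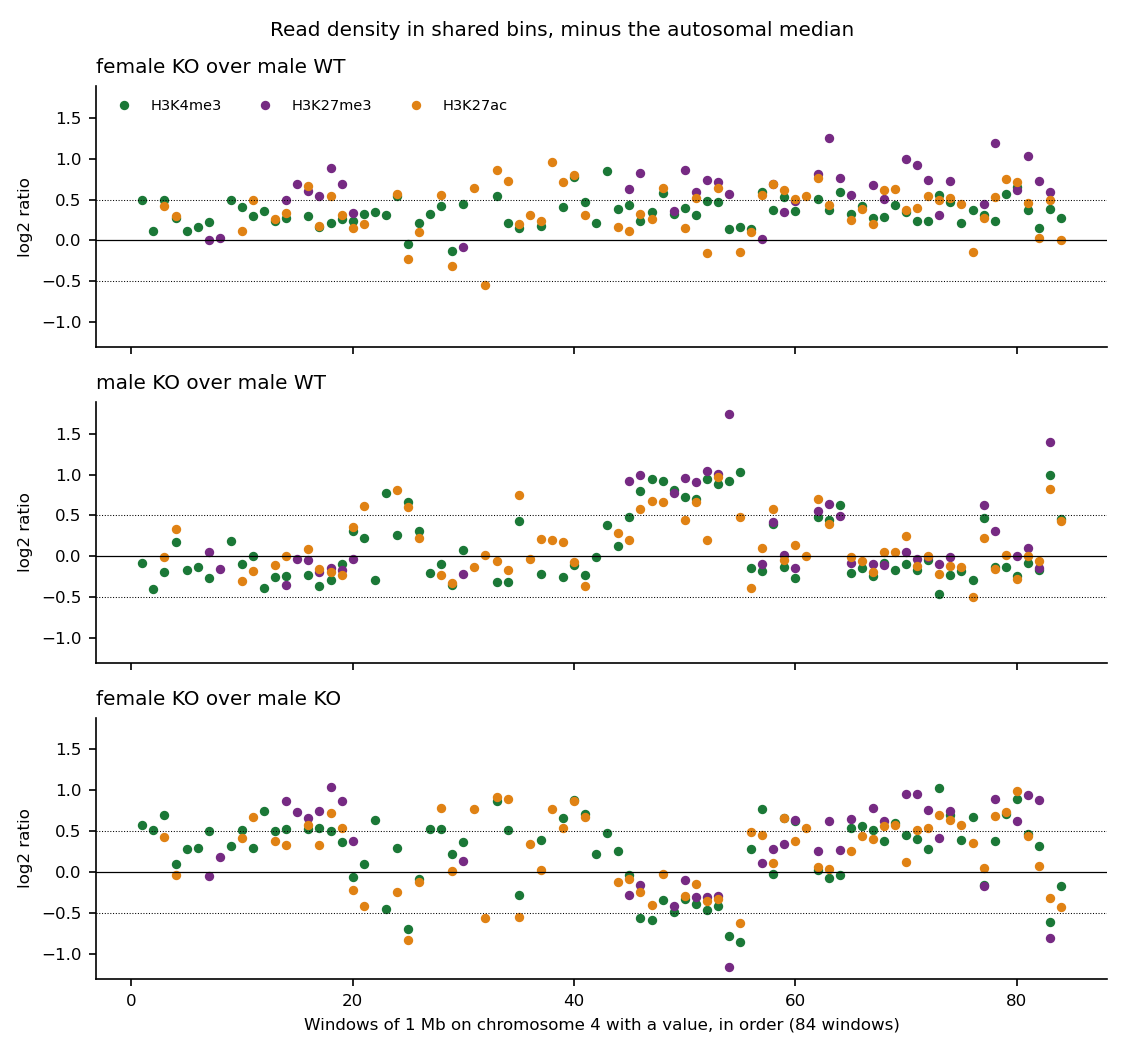
Log2 ratio of reads in shared bins (vertical axis) in 84 windows of 1 Mb that have a value for at least 1 mark, in order along chromosome 4 (horizontal axis), for the 3 pairs of lines and coloured by mark. Dotted lines mark log2 ratios of 0.5 and -0.5. Most female KO over male WT points lie above 0 along the chromosome, whereas male KO over male WT points sit near or below 0 with runs where the 3 colours are raised together.

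Few windows met the rule set here for 1 mark moving alone. A mark was counted as moving alone where it passed 0.5 in size and both others stayed within 0.25 of 0. This held in 2 of 32 windows for female KO over male WT, against 13.7% elsewhere, in 0 of 32 for male KO over male WT, against 2.31%, and in 2 of 32 for female KO over male KO, against 8.33%. In female KO over male WT both were H3K27me3. The window from 44000001 to 45000000 had 0.54 for H3K27me3 beside 0.17 for H3K4me3 and 0.18 for H3K27ac. The window from 153000001 to 154000000 had 0.73 for H3K27me3 beside 0.15 and 0.03. In female KO over male KO, H3K27me3 alone was higher from 129000001 to 130000000, at 0.63 beside -0.08 for H3K4me3 and 0.04 for H3K27ac. From 107000001 to 108000000 H3K4me3 alone was lower, at -0.57 beside -0.15 for H3K27me3 and -0.25 for H3K27ac. Each was a single window. In both ratios of female KO, the chromosome 4 median of every mark lay above 0.25. For H3K4me3 and H3K27ac it was 0.33 and 0.41 over male WT, and 0.37 and 0.37 over male KO. A window at the typical level of the chromosome therefore fails the rule in these ratios. Their shares are limited by this shift and do not show whether marks moved alone less often than elsewhere.

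Segments were then fitted to the 3 marks jointly over the 32 windows. For female KO over male WT there was 1 segment, from 41000001 to 155000000. Its medians were 0.34 for H3K4me3, 0.69 for H3K27me3 and 0.47 for H3K27ac. No window before 41000001 or between 48000000 and 106000000 had all 3 marks, so those stretches are not described by it. Male KO over male WT formed 3 segments. The middle one, with windows from 106000001 to 119000000, had medians of 0.76, 0.98 and 0.51 for H3K4me3, H3K27me3 and H3K27ac, and was the only one past 0.5 in all 3. In windows of 2 Mb no segment of this pair passed 0.5 in all 3. The one before it, from 41000001 to 48000000, had -0.24, -0.16 and -0.08, and the one after it, from 123000001 to 155000000, had -0.13, 0.00 and 0.00. The 2 KO lines compared with each other also formed 3 segments. The first, from 41000001 to 47000000, had 0.52, 0.86 and 0.54. The second, from 47000001 to 119000000, had -0.39, -0.28 and -0.25, but over only 7 windows. None of them lay between 48000000 and 106000000, so the segment does not describe that stretch. H3K4me3 regions from 3498201 to 102796200 had a median of 0.45 in this pair. The third segment, from 123000001 to 155000000, had 0.43, 0.63 and 0.42. The first was past 0.5 in all 3 marks, and no segment of this pair was in windows of 2 Mb or in bins of the pair.

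Across windows of male KO over male WT the marks varied together. Pearson's r was 0.92 between H3K4me3 and H3K27me3 over 37 windows, 0.82 between H3K4me3 and H3K27ac over 61 windows, and 0.78 between H3K27me3 and H3K27ac over 32 windows. On the other autosomes the same pairs of marks had r of 0.29, 0.34 and 0.19. For female KO over male KO, r on chromosome 4 was 0.76, 0.87 and 0.72 for the same pairs of marks. For female KO over male WT it was -0.16 between H3K4me3 and H3K27me3, 0.60 between H3K4me3 and H3K27ac and -0.02 between H3K27me3 and H3K27ac, where the other autosomes had 0.17, 0.51 and 0.21. These are descriptions over windows that share libraries and neighbours, with no test.

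The edges were placed more finely with H3K4me3 regions, which are short and frequent, a step added after seeing the data. Of the merged H3K4me3 regions on chromosome 4, 731 had at least 1 kb of shared bins and 50 reads in each line. In female KO over male WT, 215 of them were higher by a log2 ratio of 0.5 or more, against 7.19% of regions on the other autosomes. In male KO over male WT it was 188, against 10.2%. In female KO over male KO, 251 were higher, against 7.33%, and 105 were lower, against 13.6%. The ratio of female KO to male WT formed a single block with a median of 0.34. Steps well below 0.5 can be missed at this penalty, so a single block does not show that the ratio is even along the chromosome.

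Male KO over male WT formed 6 blocks that alternated between low and high. The first ran from 3498201 to 102796200 with a median log2 ratio of -0.17 over 271 regions. The second, from 102881801 to 120890400, had 0.75 over 116 regions, and all 116 were at or above 0. The third, from 122510801 to 127036000, had -0.07 over 55 regions. The next high block, from 128283401 to 131404000, had 0.49 over 46 regions, of which 44 were at or above 0. The low block after it, from 131423201 to 153676200, had -0.15 over 211 regions, and the last, from 154332401 to 155610800, had 0.71 over 32 regions. The 3 blocks with a median of 0.25 or more are called high blocks and span 22.4 Mb, and the others span 126 Mb. High and low values here were set by H3K4me3, so its differences between blocks are given as a description. The second block was found with the same edges at a penalty times 0.5 and times 2, but the other 2 high blocks were not separate blocks at the larger penalty. Blocks set from H3K27ac regions held 1 high block, from 102879001 to 131438800, and none at the end of the chromosome. At the smaller penalty a further high block appeared from 53022201 to 57319400, with a median of 0.71 over 16 regions.

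How finely an edge can be placed depends on the spacing of H3K4me3 regions. The edges were set from these same ratios, so a difference across one is built in, and its sharpness was not tested. Between the first and second blocks the flanking H3K4me3 regions were 85.6 kb apart, with log2 ratios of -0.19 before and 0.40 after. Between the high block that ends at 131404000 and its neighbour they were 19.2 kb apart, with 0.49 before and -0.26 after. This edge was absent at a penalty times 2. At the other 3 edges the flanking regions lay 1620.4, 1247.4 and 656.2 kb apart.

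**Figure D3:**
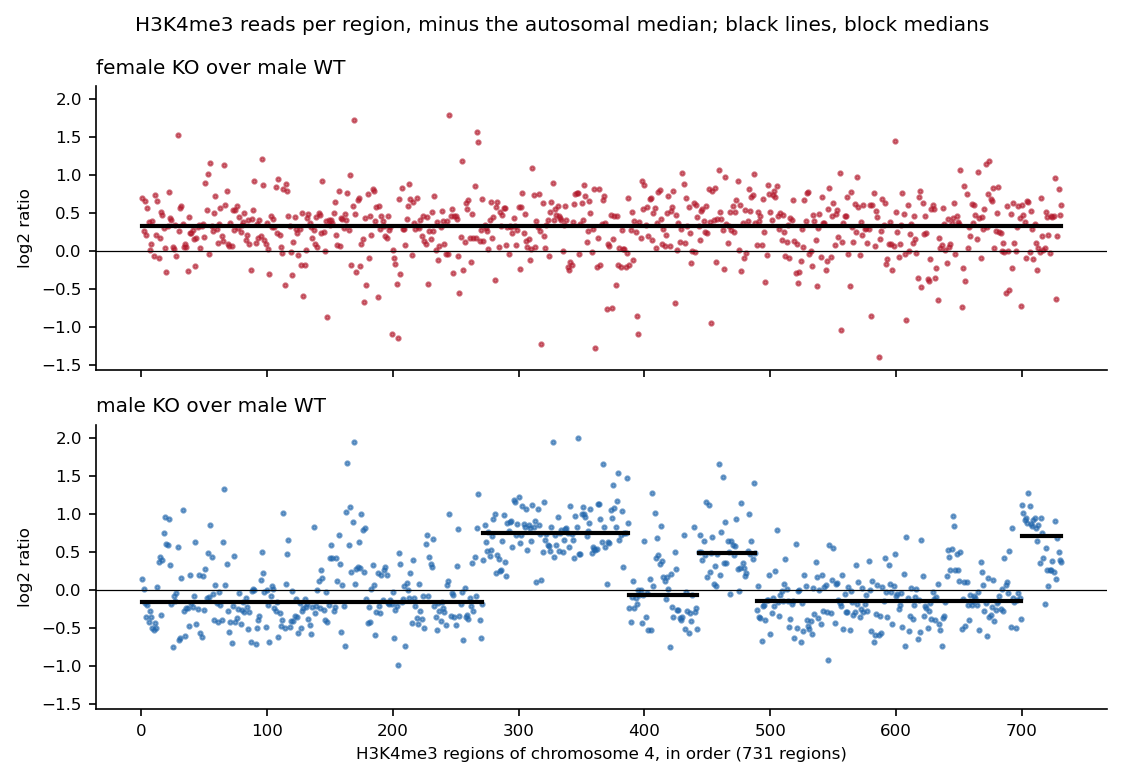
Log2 ratio of H3K4me3 reads (vertical axis) for 731 regions in order along chromosome 4 (horizontal axis), for each KO line over male WT, with block medians as black lines. Female KO over male WT has 1 block at 0.34, and male KO over male WT has 6 blocks, of which 3 have medians of 0.75, 0.49 and 0.71.

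H3K27me3 and H3K27ac did not set the edges of these blocks, and both were read in them as a description. They are no independent check, because the chromosome was chosen where all 3 marks differed. The blocks were also added after the data were seen. The joint segment from 106000001 to 119000000, past 0.5 in all 3 marks, lies in the second block. In male KO over male WT, the H3K27me3 log2 ratio over all shared bins of a block was 1.07, 0.53 and 1.37 in the 3 high blocks, in order, and -0.14, 0.26 and 0.03 in the 3 others. The last high block held only 25.2 kb of shared H3K27me3 bins. H3K27ac gave 0.55, 0.56 and 0.58 in the high blocks and 0.08, 0.15 and -0.09 in the others. These are pooled values of few blocks, and single windows overlapped for both marks. H3K27ac was 0.81 from 55000001 to 56000000, outside the high blocks, and 0.20 from 117000001 to 118000000, inside one. H3K27me3 was 0.62 from 147000001 to 148000000, outside, and 0.50 from 130000001 to 131000000, inside. The ratio of female KO to male WT differed little between the high blocks and the others, by a log2 step of 0.03 for H3K4me3, 0.13 for H3K27me3 and -0.13 for H3K27ac. By block, its H3K27ac ratio was 0.27, 0.60 and 0.20 in the high blocks and 0.39, 0.55 and 0.51 in the others.

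Levels within each line show where the difference lies. Reads per kb of shared bins were set against those on the other autosomes of the same library, so 1 stands for the same density. In male KO, H3K4me3 stood at 1.23 in the high blocks and 0.734 in the others, H3K27me3 at 1.54 and 0.793, and H3K27ac at 1.25 and 0.816. In male WT the same blocks were level with each other, at 0.747 and 0.771 for H3K4me3. H3K27me3 stood at 0.845 and 0.827 there, and H3K27ac at 0.852 and 0.818. Male WT H3K27me3 regions of the chromosome held 14.4 reads per kb, against 14.5 to 18.6 on the other autosomes. Their median was 42 reads per region. Shared bins need a call in male WT, so lower densities are not seen, and their part in this levelness was not tested. Pooled, female KO was also nearly level, at 0.963 and 0.976 for H3K4me3, 1.26 and 1.13 for H3K27me3, and 1.04 and 1.09 for H3K27ac. Single blocks of female KO varied more. H3K27me3 stood at 1.19, 1.36 and 1.27 in the high blocks, in order, and at 1.03, 1.02 and 1.23 in the others. H3K27ac stood at 0.971, 1.31 and 0.941 in the high blocks and at 0.986, 1.15 and 1.17 in the others. The highest value of both marks lay in the high block from 128283401 to 131404000. Female KO stood there at 0.937 for H3K4me3, 1.36 for H3K27me3 and 1.31 for H3K27ac. Male KO there stood at 0.961, 1.13 and 1.31 in the same order. Pooled, the steps followed the male KO libraries. For H3K27me3, female KO stood above its pooled level in the other blocks in all 3 high blocks. For H3K27ac it did so in the high block from 128283401 only. The low block from 131423201 also stood above that pooled level in both marks. Outside the high blocks male KO stood close to male WT in all 3 marks, with log2 ratios of -0.07, 0.00 and 0.00. Female KO stood above both there.

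In the high blocks relative to the others, male KO over male WT was higher by 1.73-fold for H3K4me3, 1.91-fold for H3K27me3 and 1.47-fold for H3K27ac. In bins free of both other marks in every line, the log2 step was 0.93 for H3K27me3, as in all shared bins, and 0.63 for H3K27ac against 0.55 in all shared bins. For H3K4me3 it was 0.49, against 0.79 in all shared bins, with only 6.6 kb of such bins in the high blocks. The difference between H3K27me3 and H3K27ac steps has no replicate check.

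**Figure D4:**
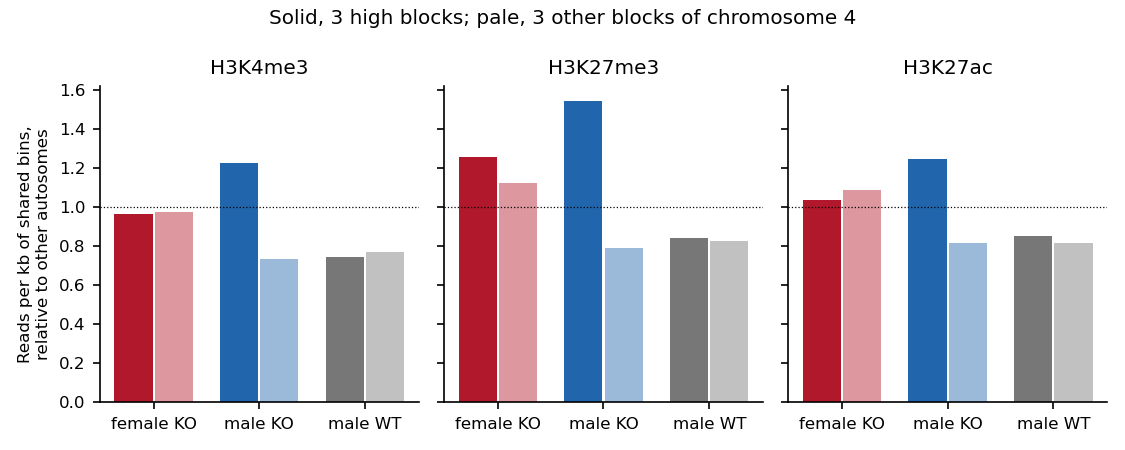
Reads per kb of shared bins on chromosome 4 relative to the other autosomes of the same library (vertical axis, 1 is equal density, dotted line) for each mark and line, in the 3 high blocks (solid bars) and the 3 other blocks (pale bars). In male KO the solid bars stand above the pale ones, at 1.23 against 0.734 for H3K4me3, while in male WT they are nearly level, at 0.747 against 0.771.

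Pooled, the high blocks were also more densely covered by regions in every line, but single blocks did not all follow. H3K4me3 in female KO covered 51.8, 114 and 266 kb per Mb in the high blocks, in order. In the other blocks it covered 20.5, 101 and 90.4 kb per Mb, and the first of these spans 99.3 Mb. Over the pooled blocks, H3K27me3 covered 265 kb per Mb in the high blocks and 138 kb per Mb in the others in female KO. The values were 269 and 46.7 kb per Mb in male KO, and 24.1 and 15.04 kb per Mb in male WT. For H3K4me3 the values were 72.8 and 35.7 kb per Mb in female KO, 66.5 and 20.4 in male KO, and 49.9 and 24.6 in male WT. Of the merged H3K27me3 regions, male KO alone held 51.1% in the high blocks and 13.5% in the others, against 21.9% on the other autosomes. Female KO alone held 13.2% and 59.1%, against 19.98% on the other autosomes. H3K4me3 regions of male KO were overlapped by H3K27me3 in 110 of 308 cases in the high blocks (35.7%, 95% Wilson interval 30.6 to 41.2%) and in 84 of 738 in the others (11.4%, 9.29 to 13.9%). On the other autosomes this share was 19.7% in male KO. In female KO it was 36.7% in the high blocks and 34.1% in the others, against 28.6% on the other autosomes. In male WT it was 4.15% and 3.74%, against 9.52%. These intervals cover counting error only. A higher read density makes a region more likely to be called, and its part in these shares was not tested.

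A few windows held H3K27me3 domains in 1 line only, with at least 100 kb covered in it and under 10 kb in each other line, a rule added after seeing the data. Of 156 windows, female KO had 5, against 4 of 2326 on the other autosomes (0.172%), and male KO had 4, against 10 of 2326 (0.430%). Male WT had 0 in both places, as did every line for H3K4me3 and H3K27ac. The broadest was in male KO from 103000001 to 104000000, with 426.8 kb covered, against 0 kb in female KO and 3.8 kb in male WT. It lies in the second block. In female KO the window from 82000001 to 83000000 had 210.0 kb covered, against 0 kb in male KO and 4.8 kb in male WT. H3K4me3 there was 0.55 for female KO over male WT and -0.31 for male KO over male WT. H3K27ac there was 0.86 and -0.06 for the same pairs. The female KO window from 33000001 to 34000000 had 206.8 kb of H3K27me3, against 0 kb in male KO and 2.4 kb in male WT. Its ratios for female KO over male WT were 0.30 for H3K4me3 and 0.49 for H3K27ac. The length called depends on read density, and the part of density in these windows was not tested.

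Stretches of any length were counted that lacked any region in 1 line, where both others had at least 2 regions of each of 2 marks. They were found 0 times for female KO, 6 times for male KO and 46 times for male WT. Per 100 Mb this was 0 for female KO, against 0.769 to 6.77 on the other autosomes, and 3.86 for male KO, against 0 to 11.4. For male WT it was 29.6 per 100 Mb, against 0 to 8.82 on the other autosomes, a comparison added after seeing the data. Short H3K27me3 and H3K27ac lists of male WT on this chromosome go with this count, and their part in it was not tested. The 3 longest were all in male WT. From 83173401 to 84851000, a stretch of 1677.6 kb, female KO had 6 H3K4me3, 3 H3K27me3 and 4 H3K27ac regions and male KO had 5, 0 and 7, against none in male WT. From 109698001 to 111086200, male KO had 22 H3K27me3 regions and female KO 2, against 0 in male WT. From 105124401 to 105953200, female KO had 13 and male KO 9, against 0 in male WT.

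The regions with the most reads give the scale of single loci. Reads here are raw and not scaled between libraries, so they do not give a direction between lines: over a typical autosomal window, female KO had 2.61 times the H3K27me3 reads of male KO and 3.29 times those of male WT. For H3K27me3 the largest in female KO ran from 136168801 to 136537200, holding 35131 reads across its 368.4 kb. In the same interval male KO had 2558 reads over 130.2 kb and male WT 1720 reads over 116.6 kb. The largest H3K27me3 region of male KO, from 116962401 to 117224200 in the second block, had 9772 reads, while the same interval had 20426 in female KO and 1733 in male WT. On the scaled ratio, the window from 117000001 to 118000000 had -0.30 for H3K27me3 in female KO over male KO. For H3K27ac the largest male KO region, from 118758801 to 118825000 in the second block, had 11639 reads, while the same interval had 4900 in female KO and 946 in male WT. For H3K4me3 the largest region of female KO, from 140851201 to 140873600, had 7697 reads, against 1455 in male KO and 3073 in male WT. The largest male WT region lies within it, from 140856401 to 140872600. No gene was named from these positions, because no annotation of build mm9 was used here.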

How the data were processed

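Per the submitters' processing notes, the tools were Bowtie 1.1.2 and SICER 1 and the build was mm9. The authors' deposited lists, 1 per library, hold regions with a whole-number last column, read as the count of reads per region. No header names that column, so its meaning rests on the values. For the control library, thresholds and total reads, values are not given in the sources used.

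Each count was spread evenly over its region. Ratios were taken in 200 bp bins held by all 3 lists of a mark, in 1 Mb windows holding 10 kb or more of such bins, minus the median over autosomal windows. Shared bins need a call in male WT, so regions absent there are left out. Joint segments used least squares with at least 3 windows, and H3K4me3 blocks used least absolute deviations with at least 5 regions. Both were tested on simulated data, where blocks with small steps were often missed. The windows named are the extremes of each pair, and regions those with the most reads. Members and lists were chosen with earlier results of these data known. Python 3.11.15 was used with pandas 2.3.3, numpy 2.4.6, matplotlib 3.10.9 and scipy 1.17.1.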

Additional observations from a re-analysis of the deposited data

Results flagged for a closer look

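Some ratios over male WT had opposite signs in the 2 KO lines. With 1 library each, the differences were not tested, and both ratios share the male WT libraries. The H3K4me3 median over chromosome 4 was 0.33 for female KO and -0.10 for male KO. In the low block from 3498201 to 102796200, H3K4me3 was 0.31 for female KO and -0.047 for male KO, and H3K27me3 was 0.53 and -0.14. In the low block from 131423201 to 153676200, H3K4me3 was 0.35 for female KO and -0.12 for male KO, and H3K27ac was 0.51 and -0.090.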

How the results depend on the processing

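Of 245 values under other settings, 189 stayed within the interval of the value reported, or within 1.5 times a count, 56 moved and 0 reversed. Counts, and medians with an interval that spans 0, could not be labelled reversed, so 0 reversed speaks only for the other values. A change of sign inside an interval that spans 0 counts as staying: the male KO over male WT median for H3K27me3, 0.0022 as reported, was -0.066 when centred on total reads, -0.014 with 20 kb of shared bins and -0.0037 in bins free of the other marks. The cause of a move was not tested. Bins free of the other marks left no window with all 3 marks.

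The female KO over male WT median for H3K27me3 was 0.42 when centred on total reads and 0.54 in regions at or above the median count, and the female KO over male KO median for H3K4me3 was 0.27 in windows of 5 Mb. Ranges over all settings for female KO over male WT were 0.31 to 0.37 for H3K4me3, 0.42 to 0.71 for H3K27me3 and 0.33 to 0.50 for H3K27ac.

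Counts of windows with all 3 marks together higher are small and moved most. For female KO over male WT they were 0 in windows of 2 Mb, of 5 Mb, when centred on total reads and at a fold of 0.75, 1 in regions at or above the median count and with reads placed by midpoint, and 13 at a fold of 0.3. For male KO over male WT they were 2 in windows of 2 Mb, with 20 kb of shared bins and at a fold of 0.75, 1 in windows of 5 Mb and 8 at a fold of 0.3. For female KO over male KO they were 1 in windows of 5 Mb, in regions at or above the median count and by midpoint, 2 when centred on total reads, 0 at a fold of 0.75 and 15 at a fold of 0.3.

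Windows with 1 mark alone for female KO over male WT were 1 in windows of 0.5 Mb and when centred on total reads, and 0 in windows of 5 Mb, with 20 kb of shared bins, in regions at or above the median count and at a fold of 0.75. For male KO over male WT they were 1 in windows of 5 Mb and in bins of the pair, and 4 at a fold of 0.3. For female KO over male KO they were 4 in windows of 0.5 Mb, 1 in windows of 2 Mb, with 20 kb of shared bins, in regions at or above the median count and by midpoint, and 0 when centred on total reads and at a fold of 0.75.

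Joint segments for male KO over male WT were 5 at a penalty times 0.5, and for female KO over male WT 2 in windows of 2 Mb. Segments together higher were 0 in windows of 2 Mb for male KO over male WT and for female KO over male KO and 0 in bins of the pair for female KO over male KO.

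The settings for blocks were chosen after seeing the data. At a penalty times 0.5, female KO over male KO had 9 blocks and male KO over male WT had 5 high blocks, with an H3K4me3 step of 0.81. At a penalty times 2, male KO over male WT had 3 blocks, 1 of them high, and steps of 0.77 for H3K4me3 and 0.46 for H3K27ac. Blocks set from H3K27ac regions were 3, with 1 high and steps of 0.58, 0.67 and 0.43 for H3K4me3, H3K27me3 and H3K27ac. In bins free of the other marks the step was 0.49 for H3K4me3, over 6.6 kb, and 0.63 for H3K27ac. Female KO over male WT was 1 block at both penalties, when set from H3K27ac regions and at minimums of 20 and 100 reads.

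No paired analysis was possible because each mark and line had 1 library. Without replicates, no difference can be set against the spread between libraries. Total depth is unknown, and levels rest on places called in all 3 lines.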
